A study of Mus musculus with 16 samples.

Results

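The joint effect of a Chd1 guide, an androgen and an antagonist of androgen action was measured by setting KO DHT+ENZ cultures against WT DMSO cultures of mouse neural progenitor cells (NPCs). The cells were grown from embryonic day 18.5 cortex with FGF-2 and EGF. KO DHT+ENZ cells (4 libraries) had received a lentivirus that constitutively expresses Cas9 and a guide RNA against Chd1, and were then given 10 µM enzalutamide (ENZ) and, 30 min later, 10 nM dihydrotestosterone (DHT) for 24 h. WT DMSO cells (4 libraries) had received a lentivirus with Cas9 and no guide, and DMSO as vehicle. Puromycin was applied for 48 h in both groups before expansion, and the labels name no cloning step, so these are bulk populations. The groups KO DHT and KO DMSO (4 libraries each) lie between these ends, with the guide and androgen or the guide and vehicle. These 8 libraries of 16 were taken by group and paired by the prefix A2, A3, A4 or A7 of their library names, here pairs 1 to 4. Guide, DHT and ENZ all differ between the 2 groups, so their shares in the difference cannot be told apart from these 8 libraries alone.

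CHD1 is a chromatin remodeller that travels with RNA polymerase over transcribed genes and spaces nucleosomes behind it. DHT is a steroid hormone that acts on gene transcription through a nuclear receptor, and enzalutamide competes with it there. Cortical NPCs are the dividing cells of the embryonic forebrain that give rise to neurons and glia, and in growth factors they keep cycling.

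The KO DHT+ENZ libraries held 31.8 to 34.0 M estimated counts (M, mega). Of the WT DMSO libraries, replicate 1 held 20.2 M and the rest 32.5 to 34.8 M. The mitochondrial share of counts was 4.31% to 4.50% in KO DHT+ENZ, and in WT DMSO it was 1.35% for replicate 1 and 3.25% to 3.59% for replicates 2 to 4. A second axis of the libraries' spread (23.6% of the variance of log2 CPM) set WT DMSO replicate 1 apart, and the first (43.2%) parted replicates 1 and 4 of all groups from replicates 2 and 3. Pair 1, which holds the shallow control library, was therefore left out of every main count as well. Of 27 progenitor and radial glia markers all were measured, and their summed level was 11932 to 13289 CPM in KO DHT+ENZ and 11687 to 14309 CPM in WT DMSO. CPM is the count of a gene scaled to a common library size, with TMM factors.

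Chd1 itself was measured at 72.9, 59.9, 71.0 and 68.9 CPM in KO DHT+ENZ replicates 1 to 4, against 60.2, 68.1, 64.8 and 73.8 CPM in WT DMSO replicates 1 to 4. The 2 groups overlapped, and the log2 fold change was 0.03 (SE 0.08; adjusted p = 0.855, edgeR). A guide's cut can leave the abundance of the RNA as it was, so this level checks neither the knockout nor the labels. Of the 10 measured CHD remodeller genes 0 passed in edgeR (1 at an unadjusted p below 0.05, and 0 in DESeq2 or limma-voom), with a median log2 fold change of -0.05. The nearest were Chd1l (-0.19, SE 0.09; adjusted p = 0.249, edgeR) and Chd9 (0.13, SE 0.06; adjusted p = 0.297, edgeR). Of 13 genes whose products work with CHD1 in transcript elongation, 1 fell (7.69%, beside 2.72% of all genes tested). This was the histone chaperone gene Ssrp1 (-0.23, SE 0.05; adjusted p = 0.0231, edgeR). Its groups overlapped, and it did not pass without the pairing in the fit (adjusted p = 0.651, edgeR).

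In KO DHT+ENZ cells, 39 of 46 mitosis genes and 24 of 34 genes of G1/S and DNA replication fell. In the same cells 18 of 42 lysosomal genes, 10 of 16 genes of the lysosomal proton pump, 6 of 14 LXR receptors and targets and 3 of 18 amino-sugar genes rose. Of 16971 genes, 784 changed (4.62%), 322 higher (1.9%) and 462 lower (2.72%), at an adjusted p under 0.05 in edgeR's quasi-likelihood test with the pair as a block. The changes were small, with a median absolute log2 fold change of 0.41 among the 784 and 23 genes past 2-fold, 4 higher and 19 lower. The 4 were Abca1, Fabp3, Apoe and Gm45847, a gene model with no given name (1.18, named after its value was seen). Of the 784, 761 moved the same way in 4 of 4 pairs. In 385 of them the 4 KO DHT+ENZ libraries lay wholly above (182) or below (203) the 4 WT DMSO libraries, against 2.46% of all genes tested that lay wholly above and 2.38% that lay wholly below.

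Without pair 1 the count was 1044 of 17084 genes (6.11%), with 486 higher (2.84%) and 558 lower (3.27%). Of the 784 genes, 638 also passed without pair 1 and none turned its sign. The count rests on the pairing, since without the block 42 genes passed (0.247%), 10 higher (0.0589%) and 32 lower (0.189%), all 42 of them among the 784 and among those called without pair 1. With only the 8 libraries of these 2 groups in the fit 1 gene passed, Abca1, and with 6 libraries (pair 1 left out) 449 passed. A check on the pairing, described below, was not met in pair 1 (r = 0.08), and the block was kept.

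**Figure D1:**
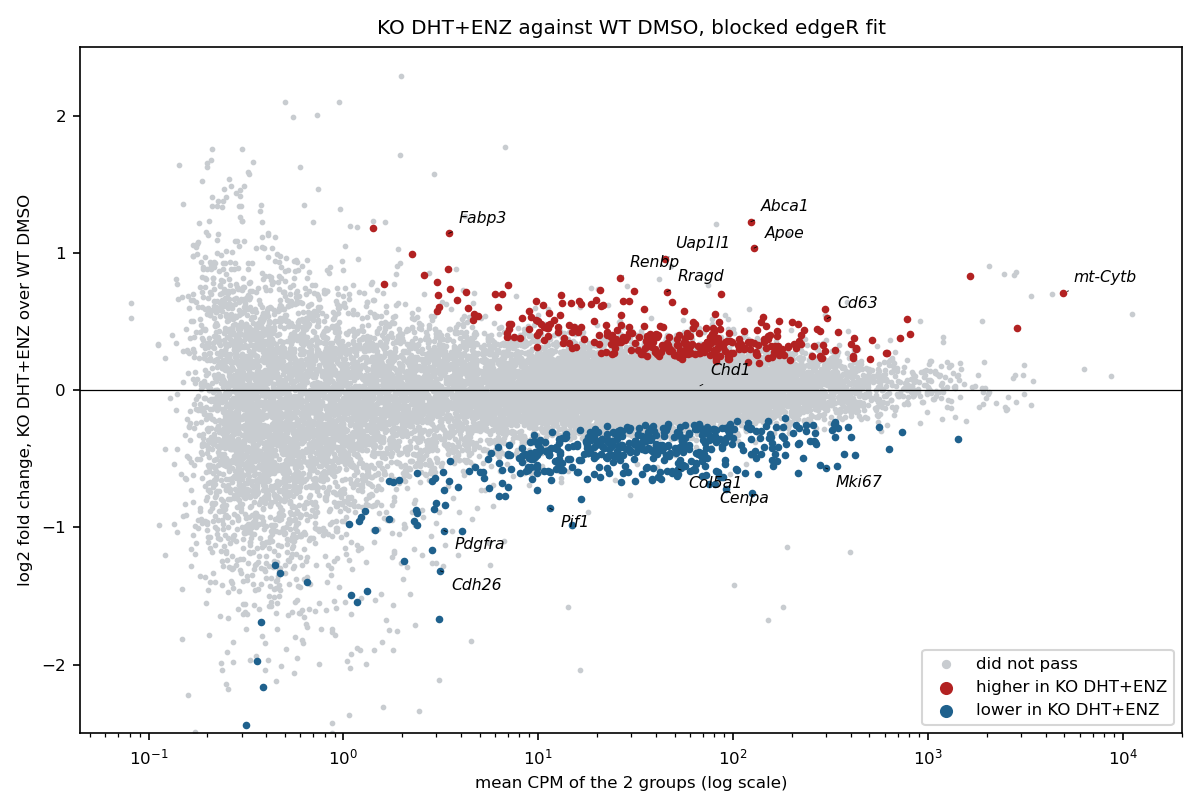
Log2 fold change of KO DHT+ENZ over WT DMSO (vertical axis) against the mean CPM of both groups (horizontal axis, log scale) for each gene tested, with genes that passed in red (higher, 322) or blue (lower, 462). Named genes are labelled, 2 genes that passed lie outside the vertical axis, and most genes that passed changed by less than 2-fold.

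Mitosis genes fell as the largest group. Of 46 genes of G2 and M phase, all measured, 39 fell and 0 rose, beside 2.72% of all genes tested that fell. The list's median log2 fold change was -0.55, against a median of -0.00 for all genes tested, and all 46 were below 0. Its means in pairs 1 to 4 were -0.44, -0.54, -0.45 and -0.61. Without pair 1, 45 of the 46 fell (median -0.54), and without the block 16 did. Fewer cells in mitosis and less mitotic RNA per cell cannot be told apart in these bulk libraries.

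Cenpa, the histone variant that marks centromeres, was at 53.3, 55.8, 70.7 and 51.4 CPM in KO DHT+ENZ, against 92.4, 86.6, 103 and 87.4 CPM in WT DMSO. The groups did not overlap, and Cenpa fell by 0.68 on the log2 scale (log2 fold change -0.68, SE 0.06; adjusted p = 7.28e-05, edgeR). Tpx2, which builds the spindle and activates Aurora A kinase, was at 120, 141, 144 and 115 CPM in KO DHT+ENZ, against 175, 201, 216 and 173 CPM in WT DMSO. Every KO DHT+ENZ library again lay below every WT DMSO library (-0.56, SE 0.05; adjusted p = 7.28e-05, edgeR). Cdca2, which recruits a phosphatase to chromosomes, was at 29.9, 32.3, 35.4 and 31.2 CPM in KO DHT+ENZ, against 47.8, 48.7, 53.6 and 49.7 CPM in WT DMSO. Ncapd2, a condensin subunit that compacts chromosomes, was at 166, 169, 187 and 157 CPM in KO DHT+ENZ, against 278, 245, 264 and 242 CPM in WT DMSO. Neither gene's groups overlapped, with log2 fold changes of -0.63 (SE 0.06) for Cdca2 and -0.60 (SE 0.07) for Ncapd2 (adjusted p = 9.35e-05 and 0.000193, edgeR).

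Mki67, the Ki-67 protein of cycling cells, was at 248, 219, 247 and 247 CPM in KO DHT+ENZ, against 352, 359, 337 and 373 CPM in WT DMSO. Its groups did not overlap (-0.57, SE 0.08; adjusted p = 0.000915, edgeR). The falls ran across the stages of mitosis. They took in the regulators Cdk1 (-0.46), Ccnb1 (-0.49), Ccnb2 (-0.59) and Foxm1 (-0.55), the mitotic kinases Plk1 (-0.63), Aurka (-0.62) and Aurkb (-0.56), and the checkpoint genes Bub1b (-0.57), Ttk (-0.48) and Mad2l1 (-0.33). Cdc20, the activator of the complex that starts anaphase, had the lowest log2 fold change of the list (-0.75, SE 0.09; adjusted p = 0.000285, edgeR), and its partner enzyme Ube2c was at -0.57. Motor genes of the spindle fell too, among them Kifc1 (-0.69), Kif20a (-0.63), Kif14 (-0.61) and Kif23 (-0.53). The 7 members that did not pass were Kif20b, Kif11, Ect2, Smc2, Ncapg, Smc4 and Bub1, with log2 fold changes between -0.40 and -0.02.

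Of the 42 genes that passed also without the block, 16 were members of the mitosis list. Others among them that also act in dividing cells were Troap (-0.79), Spag5 (-0.61), Kif18b (-0.65), Cep55 (-0.47) and Iqgap3 (-0.65), named after their values were seen. Pif1, a DNA helicase gene, was among the 12 largest falls of all genes. It was at 9.79, 7.51, 8.02 and 7.14 CPM in KO DHT+ENZ, against 17.4, 14.1, 10.2 and 17.4 CPM in WT DMSO. All KO DHT+ENZ libraries lay below all WT DMSO libraries (-0.86, SE 0.13; adjusted p = 0.00167 with the block and 0.0395 without it, edgeR).

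The mitosis promoters were searched for 2 short letter groups known from promoters of such genes. These are CCAAT, which the factor NF-Y binds, and TTTGAA, the core of the element called CHR in cell cycle promoters. Promoters were the 300 bases from 250 before to 50 after a start site in RefSeq (GRCm38.p6), read on both strands, and the motifs do not overlap in letters. Of the 39 genes that fell, 32 matched 33 promoters. CCAAT was in 75.8% of these 33 promoters and in 37.4% of all 32851 promoters of the table, and TTTGAA was in 78.8% and 17.9%. CACGTG, a letter group used below, was in 9.09% and 7.15%. These shares are descriptions of letters in a window, not of bound sites. Members of the list that did not pass were not counted apart, so the shares cannot be tied to the calls. The promoters of Cenpa (chr5:30666636-30666935, plus strand) and Ncapd2 (chr6:125191537-125191836, minus strand) are shown as the members with the largest fall relative to its error that hold both groups, with matches of either letter group, or of its reverse complement, in capitals.
Cenpa: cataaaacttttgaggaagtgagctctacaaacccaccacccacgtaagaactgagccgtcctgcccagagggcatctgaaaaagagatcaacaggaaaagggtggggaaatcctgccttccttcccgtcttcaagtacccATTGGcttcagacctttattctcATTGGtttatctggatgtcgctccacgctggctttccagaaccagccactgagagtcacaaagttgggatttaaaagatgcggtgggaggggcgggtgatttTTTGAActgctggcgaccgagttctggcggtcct
Ncapd2: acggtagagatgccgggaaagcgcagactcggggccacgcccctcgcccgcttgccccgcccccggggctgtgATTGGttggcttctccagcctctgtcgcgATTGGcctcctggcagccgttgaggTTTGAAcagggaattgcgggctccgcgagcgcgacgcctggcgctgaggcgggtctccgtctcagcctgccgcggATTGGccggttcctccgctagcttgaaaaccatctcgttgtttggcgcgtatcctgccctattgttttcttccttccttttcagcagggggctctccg
Cenpa held 2 matches of CCAAT and 1 of TTTGAA, and Ncapd2 held 3 and 1.

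Genes of G1/S and DNA replication fell as well. Of 34 genes, all measured, 24 fell and 0 rose (median -0.35), and all 34 were below 0. Their means in pairs 1 to 4 were -0.47, -0.17, -0.28 and -0.44, with 26 lower without pair 1 and 0 lower without the block (8 at an unadjusted p below 0.05). Rrm2, the small subunit of ribonucleotide reductase, was at 155, 226, 229 and 146 CPM in KO DHT+ENZ, against 193, 279, 295 and 215 CPM in WT DMSO. The groups overlapped as sets, while each KO DHT+ENZ library lay below the WT DMSO library of its own pair (-0.38, SE 0.06; adjusted p = 0.00154 with the block and 0.547 without it, edgeR). Replicates 2 and 3 were high and replicates 1 and 4 low in both groups, a pattern that the block takes out. Mcm10 and Clspn, of replication origins and the replication checkpoint, showed the same order within pairs (-0.46, SE 0.07, and -0.45, SE 0.07; adjusted p = 0.0017 and 0.0022, edgeR). Origin and helicase genes that fell included Mcm5 (-0.45), Mcm7 (-0.41), Cdc45 (-0.44), Cdc6 (-0.33) and Cdt1 (-0.37), with Uhrf1, which maintains DNA methylation at forks, lowest at -0.51.

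Among regulators of G1, 1 gene passed. Of 13 genes of G1 cyclins and CDK inhibitors, 1 fell (7.69%, beside 2.72% of all genes tested), and the median was 0.04. This was the inhibitor gene Cdkn2c (-0.42, SE 0.09; adjusted p = 0.0101, edgeR). Ccnd1 was at 0.11 and Cdkn1a, which encodes p21, at -0.04, and neither passed. Of 25 p53 targets 2 fell (8%) and 0 rose (median -0.01). These were Gtse1 (-0.52, SE 0.07; adjusted p = 0.000411, edgeR), whose product is made in G2 and restrains p53, and Sesn2 (-0.28, SE 0.06; adjusted p = 0.0176, edgeR), a stress-induced regulator of mTORC1. Markers of progenitors had a median of -0.04, and 2 of 27 fell (7.41%). These were Mki67 and Sox3, a progenitor transcription factor gene (-0.46, SE 0.10; adjusted p = 0.0149 with all pairs and 0.0548 without pair 1, edgeR).

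**Figure D2:**
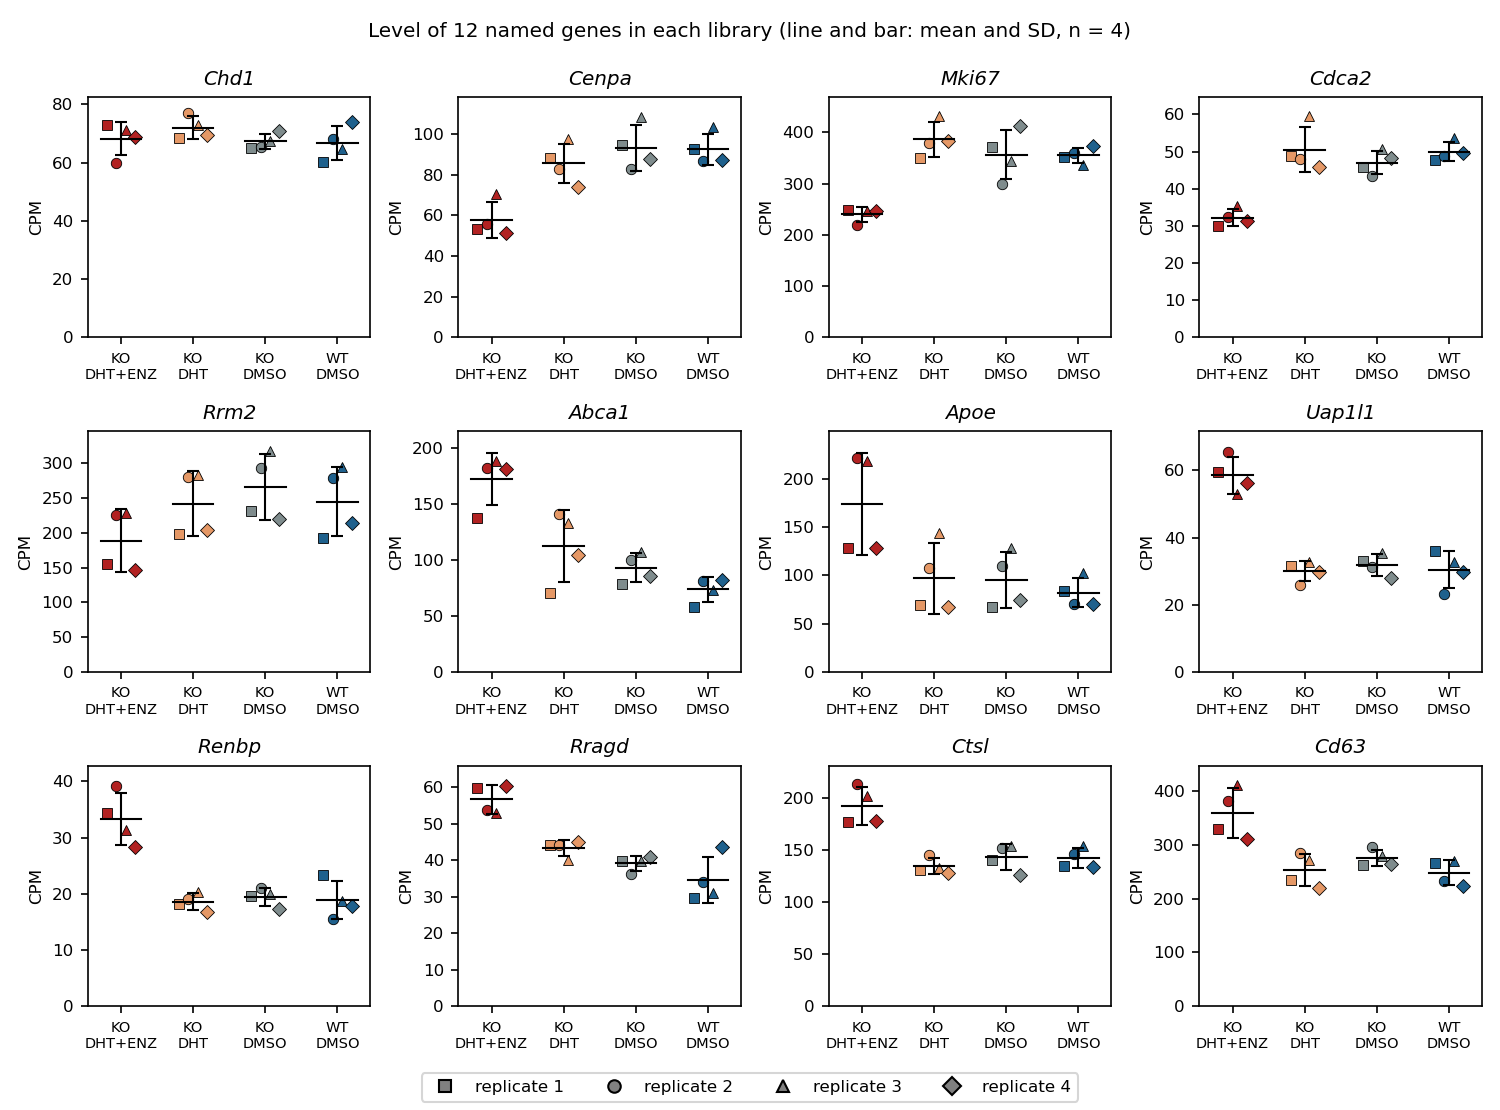
CPM of 12 named genes (vertical axes, from 0) in each library of the 4 groups, with KO DHT+ENZ at the left and WT DMSO at the right, a marker shape for each replicate number, and a line and bar for mean and SD (n = 4). Cenpa, Mki67 and Cdca2 are lower in all 4 KO DHT+ENZ libraries than in any WT DMSO library, Abca1, Uap1l1, Renbp, Rragd, Ctsl and Cd63 are higher, and Chd1 overlaps.

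LXR are the oxysterol-sensing nuclear receptors that control cholesterol efflux. Of 14 measured LXR receptors and targets 6 rose and 0 fell, beside 1.9% of all genes tested that rose, with a median log2 fold change of 0.32. Abca1, the transporter that loads cholesterol onto lipoproteins, was at 138, 182, 188 and 182 CPM in KO DHT+ENZ, against 58.3, 81.4, 73.3 and 81.7 CPM in WT DMSO. Its groups did not overlap, and it was 2.34-fold higher (log2 fold change 1.23, SE 0.10; adjusted p = 3.41e-05, edgeR), the largest rise of the genes named by rule. It passed without pair 1 (adjusted p = 0.000214), without the block (adjusted p = 0.0134) and with only the 8 libraries of these groups (adjusted p = 0.000917), all in edgeR. Apoe, the brain's main lipoprotein, was at 128, 221, 218 and 128 CPM in KO DHT+ENZ, against 84.1, 70.5, 103 and 70.7 CPM in WT DMSO. Every KO DHT+ENZ library was above every WT DMSO library, with replicates 2 and 3 the highest (1.04, SE 0.14; adjusted p = 0.000995 with the block and 0.112 without it, edgeR).

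Srebf1, which drives fatty acid synthesis genes, was at 276, 453, 375 and 315 CPM in KO DHT+ENZ, against 227, 262, 271 and 177 CPM in WT DMSO. These groups did not overlap (0.59, SE 0.11; adjusted p = 0.00626 with the block and 0.416 without it, edgeR). The fatty acid desaturase genes Scd2 (0.45, SE 0.07; adjusted p = 0.00167, edgeR) and Scd1 (0.31) and the phospholipid enzyme gene Lpcat3 (0.35) rose too. Members that did not pass included the sterol transporter gene Abcg1 (0.33), Fasn (0.08), Mylip (-0.11) and the receptor genes Nr1h3 (-0.61) and Nr1h2 (-0.04). In pair 1 the list's mean was 0.06, against 0.34 to 0.40 in the other pairs, and without pair 1 the same count of 6 rose. Of 26 genes of cholesterol synthesis and its regulator SREBP2, 0 passed in edgeR (5 at an unadjusted p below 0.05), with 3 lower in DESeq2 and 0 in limma-voom, while 4 fell in edgeR without pair 1. The nearest was Lss, lanosterol synthase (-0.41, SE 0.12; adjusted p = 0.0616 with all pairs and 0.000533 without pair 1, edgeR).

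Lysosomal genes that passed all rose. Of 42 genes of lysosomal hydrolases and membrane proteins, all measured, 18 rose and 0 fell (median 0.24), and 38 were above 0. Their means in pairs 1 to 4 were 0.19, 0.36, 0.16 and 0.35. Without pair 1, 23 rose, without the block 1 did (Gaa, acid alpha-glucosidase), and with an offset for transcript length 14 did. Ctsl, the protease cathepsin L, was at 177, 214, 202 and 178 CPM in KO DHT+ENZ, against 135, 147, 154 and 134 CPM in WT DMSO. Its groups did not overlap (0.43, SE 0.06; adjusted p = 0.000497, edgeR). Npc2, which hands cholesterol out of the lysosome, was at 303, 351, 337 and 296 CPM in KO DHT+ENZ, against 216, 237, 270 and 232 CPM in WT DMSO. Cd63, a membrane protein of late endosomes, was at 329, 382, 412 and 311 CPM in KO DHT+ENZ, against 266, 234, 270 and 223 CPM in WT DMSO. In both genes the lowest KO DHT+ENZ library exceeded the highest WT DMSO library (0.43, SE 0.06, and 0.52, SE 0.07; adjusted p = 0.000666 and 0.000915, edgeR).

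The other hydrolase genes that rose act on several substrates. Sphingolipid and glycan enzymes among them were Manba (0.63), Asah1 (0.50) and Hexa (0.50). Proteases were Tpp1 (0.41), Ctsh (0.40) and Ctsd (0.27), and Lamp1, the lysosomal coat protein gene, was at 0.38. The 4 members below 0 were Neu1, Ctsz, Galns and Sgsh, none of which passed.

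The vacuolar proton pump, which acidifies lysosomes, rose in 10 of its 16 measured subunit genes with 0 lower (median 0.31), and all 16 were above 0. Atp6v1b2, a subunit of the ATP-splitting head, was at 216, 215, 204 and 216 CPM in KO DHT+ENZ, against 172, 162, 174 and 174 CPM in WT DMSO. The groups were narrow and did not overlap (0.32, SE 0.06; adjusted p = 0.00552, edgeR). The head gene Atp6v1a (0.40), the subunit gene Atp6v1d (0.36), the membrane ring genes Atp6v0b (0.34) and Atp6v0c (0.23), and the accessory genes Atp6ap1 (0.33) and Atp6ap2 (0.43) rose as well. Without pair 1, 13 rose. With an offset for transcript length 2 of the 16 passed (median 0.26), and without the block 0 did (12 at an unadjusted p below 0.05).

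Of 29 genes of the TFEB family of lysosomal transcription factors, the Rag GTPases and autophagy, 8 rose and 0 fell (median 0.17). Rragd, a Rag GTPase that relays amino acid supply at the lysosome, was at 59.7, 53.6, 53 and 60.3 CPM in KO DHT+ENZ, against 29.6, 33.9, 31.1 and 43.7 CPM in WT DMSO. Its groups did not overlap (0.72, SE 0.08; adjusted p = 0.000231 with the block and 0.0134 without it, edgeR). The other Rag GTPase genes Rragc (0.41) and Rragb (0.35), the Rag regulator genes Flcn (0.34) and Fnip1 (0.65), and the autophagosome genes Gabarap (0.36) and Gabarapl1 (0.30) rose, while Rraga (0.11) did not pass. The transcription factor genes themselves did not pass, with Tfeb at 0.22, Tfe3 at -0.06 and Mitf at 0.37, nor did Mtor (0.01) or Sqstm1 (0.14).

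Promoters of the 36 genes that rose in these 3 lists were searched for CACGTG, the palindrome recognised by the TFEB family and by other E-box factors. It was in 39.3% of 28 promoters (26 genes matched), against 7.15% of all 32851 promoters. CCAAT was in 32.1% and TTTGAA in 21.4% of the same 28. Here too, members that did not pass were not counted apart, so the shares cannot be tied to the calls. The promoters of Ctsl (chr13:64370471-64370770, minus strand) and Atp6v0b (chr4:117887280-117887579, minus strand) are shown as the members with the largest rise relative to its error that hold CACGTG, which is in capitals.
Ctsl: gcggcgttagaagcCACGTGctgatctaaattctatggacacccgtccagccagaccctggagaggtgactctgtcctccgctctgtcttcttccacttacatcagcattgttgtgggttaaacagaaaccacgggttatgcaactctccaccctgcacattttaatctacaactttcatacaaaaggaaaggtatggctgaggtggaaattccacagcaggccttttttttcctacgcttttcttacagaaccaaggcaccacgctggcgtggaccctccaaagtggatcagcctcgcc
Atp6v0b: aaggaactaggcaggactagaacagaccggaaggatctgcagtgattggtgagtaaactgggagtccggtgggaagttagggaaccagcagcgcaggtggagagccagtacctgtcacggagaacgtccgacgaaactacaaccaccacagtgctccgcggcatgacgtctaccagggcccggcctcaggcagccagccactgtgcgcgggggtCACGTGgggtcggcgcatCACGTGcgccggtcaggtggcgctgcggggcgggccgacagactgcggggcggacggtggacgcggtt
Ctsl held 1 match and Atp6v0b held 2, and neither says whether a factor was bound.

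Amino-sugar genes gave 2 of the 12 largest rises. Uap1l1, a relative of the enzyme that makes UDP-N-acetylglucosamine, was at 59.5, 65.5, 52.9 and 56.2 CPM in KO DHT+ENZ, against 36.1, 23.3, 32.7 and 29.7 CPM in WT DMSO. It was 1.94-fold higher and the groups did not overlap (0.96, SE 0.11; adjusted p = 0.000193 with the block and 0.00803 without it, edgeR). Renbp, which interconverts N-acetylglucosamine and N-acetylmannosamine, was at 34.3, 39.2, 31.4 and 28.4 CPM in KO DHT+ENZ, against 23.4, 15.4, 18.8 and 17.8 CPM in WT DMSO. Its groups did not overlap either (0.82, SE 0.11; adjusted p = 0.000497 with the block and 0.0152 without it, edgeR). Gnpda1, which turns glucosamine phosphate into fructose phosphate, rose (0.45, SE 0.06; adjusted p = 0.000984, edgeR). The rise was in 3 of 18 genes of the list (median 0.12), and the rate-setting gene Gfpt1 (0.17) and Uap1 (0.04) did not pass.

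The remaining largest rises came from low or moderate levels. Fabp3, a fatty acid carrier, was at 5.63, 5.4, 4.37 and 3.72 CPM in KO DHT+ENZ, against 2.56, 2.23, 1.86 and 1.95 CPM in WT DMSO (1.14, SE 0.14; adjusted p = 0.000342, edgeR). Trnp1, a nuclear regulator of cortical progenitor expansion, was at 4.51, 4.00, 4.31 and 4.87 CPM in KO DHT+ENZ, against 2.83, 1.5, 2.69 and 2.73 CPM in WT DMSO (0.89, SE 0.15; adjusted p = 0.00284, edgeR). Neither gene's groups overlapped. The others were Ppil6 (0.99), St8sia5, a sialyltransferase gene (0.84), Enpep, an aminopeptidase gene (0.79), Bdh2 (0.74) and Mroh1 (0.73), all higher in 4 of 4 pairs.

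Among the 12 largest falls, some genes had uneven replicates. Cdh26, a cadherin gene, was at 1.85, 2.08, 1.87 and 1.21 CPM in KO DHT+ENZ, against 3.16, 5.99, 6.48 and 2.53 CPM in WT DMSO, with no overlap and with WT DMSO replicates 2 and 3 the highest (-1.32, SE 0.20; adjusted p = 0.00147, edgeR). Pdgfra, the receptor that marks oligodendrocyte precursors, was at 1.70, 2.88, 2.40 and 1.49 CPM in KO DHT+ENZ, against 7.76, 4.43, 3.12 and 2.44 CPM in WT DMSO. Its fall was lost without pair 1 (-1.02, SE 0.26; adjusted p = 0.0358 with all pairs and 0.0737 without pair 1, edgeR), as were those of Halr1 (adjusted p = 0.0677) and Fam131b (adjusted p = 0.0686). Others of the 12 were Ramp3 (-1.03), Rcn3 (-0.98), Sertad4 (-0.96), Clgn (-0.89), Ptprv (-0.87) and Inava (-0.87).

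Mitochondrially encoded transcripts had the highest list median, 0.83 over 15 measured transcripts. Of the 15, 3 rose (20%, beside 1.9% of all genes tested) and 0 fell. The mean over the list was 1.89 in pair 1 and 0.43, 0.73 and 0.45 in pairs 2 to 4. Without pair 1 the median was 0.51 and 6 rose. mt-Rnr1, the small ribosomal RNA of mitochondria, was at 111, 109, 112 and 98.2 CPM in KO DHT+ENZ, against 51.5, 71.2, 73.5 and 67.8 CPM in WT DMSO (0.70, SE 0.11; adjusted p = 0.00161 with the block and 0.0152 without it, edgeR). mt-Cytb, a respiratory complex subunit, was at 5609, 6273, 6696 and 5537 CPM in KO DHT+ENZ, against 1836, 4966, 4389 and 4174 CPM in WT DMSO (0.71, SE 0.18; adjusted p = 0.0425, edgeR). Both were above every WT DMSO library, and the shallow WT DMSO replicate 1 was the lowest in each. The rise of mt-Nd5 (0.83, SE 0.20; adjusted p = 0.0359) was lost without pair 1 (adjusted p = 0.207, edgeR). Of 36 nuclear genes of the respiratory chain 5 rose (13.9%), among them Ndufs1 (0.35) and Uqcrc2 (0.27). In this list 0 fell and all 36 were above 0 (median 0.14). Without pair 1, 12 rose. Of 48 ribosomal protein genes 1 rose, Rpl23 (0.27), a share of 2.08% that is near the 1.9% of all genes tested. Near-identical copies make single values of this family uncertain.

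Androgen-linked genes that passed were 3 targets, which rose, and 1 steroid enzyme gene, which fell. Nr3c1, the gene of the glucocorticoid receptor, was at 14.9 to 23.0 TPM in KO DHT+ENZ and 11.1 to 23.5 TPM in WT DMSO, on the authors' length-scaled TPM scale, and the groups overlapped. Of 29 measured androgen and glucocorticoid targets 3 rose (10.3%, beside 1.9% of all genes tested) and 0 fell, with a median of 0.11. Without pair 1, 5 rose and 1 fell, adding Mt2, Dbi and, lower, Pmepa1, which were named after their values were seen. Without the block 0 passed in edgeR (7 at an unadjusted p below 0.05), and in DESeq2 6 rose and 2 fell. The 3 that rose with all pairs were Acsl3, a fatty acid ligase gene (0.37, SE 0.08; adjusted p = 0.0117, edgeR), Mt1, a metal-binding metallothionein gene (0.48, SE 0.10; adjusted p = 0.0146, edgeR), and Klf9, a hormone-induced transcription factor gene (0.30, SE 0.08; adjusted p = 0.0379, edgeR). Mt1 was at 216, 260, 295 and 226 CPM in KO DHT+ENZ, against 166, 152, 202 and 195 CPM in WT DMSO, with no overlap. Fkbp5, a widely used target, was at -0.21 and did not pass (adjusted p = 0.0869, edgeR), nor did Zbtb16 (-0.11) or Tsc22d3 (0.09). Of 17 steroid receptor, enzyme and coregulator genes 1 fell (5.88%, beside 2.72% of all genes tested). This was Srd5a1, which encodes a 5-alpha-reductase that makes DHT (-0.36, SE 0.10; adjusted p = 0.042, edgeR).

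In lists of signalling and fate genes between 0 and 5 genes passed, beside 1.9% of all genes tested that rose and 2.72% that fell. Of 18 genes of ID proteins and BMP or TGF-beta feedback 3 rose (16.7%), Id2 (0.55), Gdf11 (0.38) and Tgfb2 (0.39). Id2, an inhibitor of neurogenic transcription factors, was at 25.0, 35.1, 39.4 and 27.3 CPM in KO DHT+ENZ, against 16.7, 22.7, 22.8 and 23.7 CPM in WT DMSO, with no overlap (SE 0.11; adjusted p = 0.0107, edgeR). Of 19 Hippo-YAP genes 4 fell (21.1%), the junction genes Ajuba (-0.44) and Amotl2 (-0.55), Tead2 (-0.30) and Myl9 (-0.47), and 1 rose, the coactivator gene Wwtr1 (0.31). Means of this list in pairs 1 to 4 were 0.05, -0.28, -0.24 and 0.07, and in pair 4 Ajuba was at -0.03 and Amotl2 at 0.00. Without pair 1 the list again had 4 lower and 1 higher. Without the block 0 passed, and with the length offset 1 was lower and 0 higher. Dll1, a Notch ligand gene, fell (-0.33), alone among 17 Notch genes. Of 33 matrix genes 2 fell, Col5a1 (-0.57, SE 0.09; adjusted p = 0.0017, edgeR) and Col5a2 (-0.27). Of 19 clock genes 3 rose (15.8%), the repressor genes Bhlhe40 (0.37) and Bhlhe41 (0.42) and the output gene Dbp (0.48). Of 36 chromatin genes of neurodevelopmental disorders 1 fell, Ezh2, the methyltransferase of Polycomb complex PRC2 (-0.24, SE 0.06; adjusted p = 0.0414, edgeR). In edgeR 0 genes passed among 18 of Wnt signalling, 20 of the NRF2 and xenobiotic response and 17 of the interferon response (3, 2 and 0 at an unadjusted p below 0.05, and 0 in DESeq2 or limma-voom). Without pair 1, Tcf7 of the Wnt list (adjusted p = 0.01) and Ifit2 of the interferon list (adjusted p = 0.0403) were lower in edgeR, both named after their values were seen. In each of 3 lists 1 gene fell: Sesn2 of 34 in the stress and unfolded protein responses, Aldoc (-0.36) of 28 in hypoxia and glycolysis, and Ier5 (-0.40) of 33 immediate early genes.

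Markers of other cell types were checked beside all genes tested, of which 1.9% rose and 2.72% fell. Of 14 measured astrocyte markers 3 rose (21.4%), Apoe, Aldh1l1 (0.53) and Slc1a2 (0.35), and 1 fell (7.14%), Aldoc. The call of Slc1a2 was lost without pair 1 (adjusted p = 0.0483 with all pairs and 0.128 without pair 1, edgeR). The summed level of the astrocyte markers was 1368 to 1495 CPM in KO DHT+ENZ and 1204 to 1347 CPM in WT DMSO. Of 19 early neuron markers 1 rose (5.26%), Gad1, which makes GABA (0.70, SE 0.13; adjusted p = 0.00516, edgeR), with sums of 1507 to 1867 CPM in KO DHT+ENZ and 1289 to 1784 CPM in WT DMSO. Of 11 oligodendrocyte lineage markers 1 fell (9.09%), Pdgfra, with sums of 1964 to 2760 CPM in KO DHT+ENZ and 1998 to 2446 CPM in WT DMSO. Of 26 glutamate and GABA receptor genes Gria1 (0.48) and Gabbr1 (0.27) rose (7.69%) and Grik1 (-0.94) fell (3.85%). Pericyte, microglia, endothelial and ependymal lists had 5 of 14, 5 of 14, 7 of 10 and 7 of 10 markers past the filter on low counts. Of the microglia markers, Aif1, Cx3cr1, Tmem119 and the C1q genes did not pass the filter. The part of astrocyte or microglia RNA in the rises of Apoe and the lysosomal genes was not tested.

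**Figure D3:**
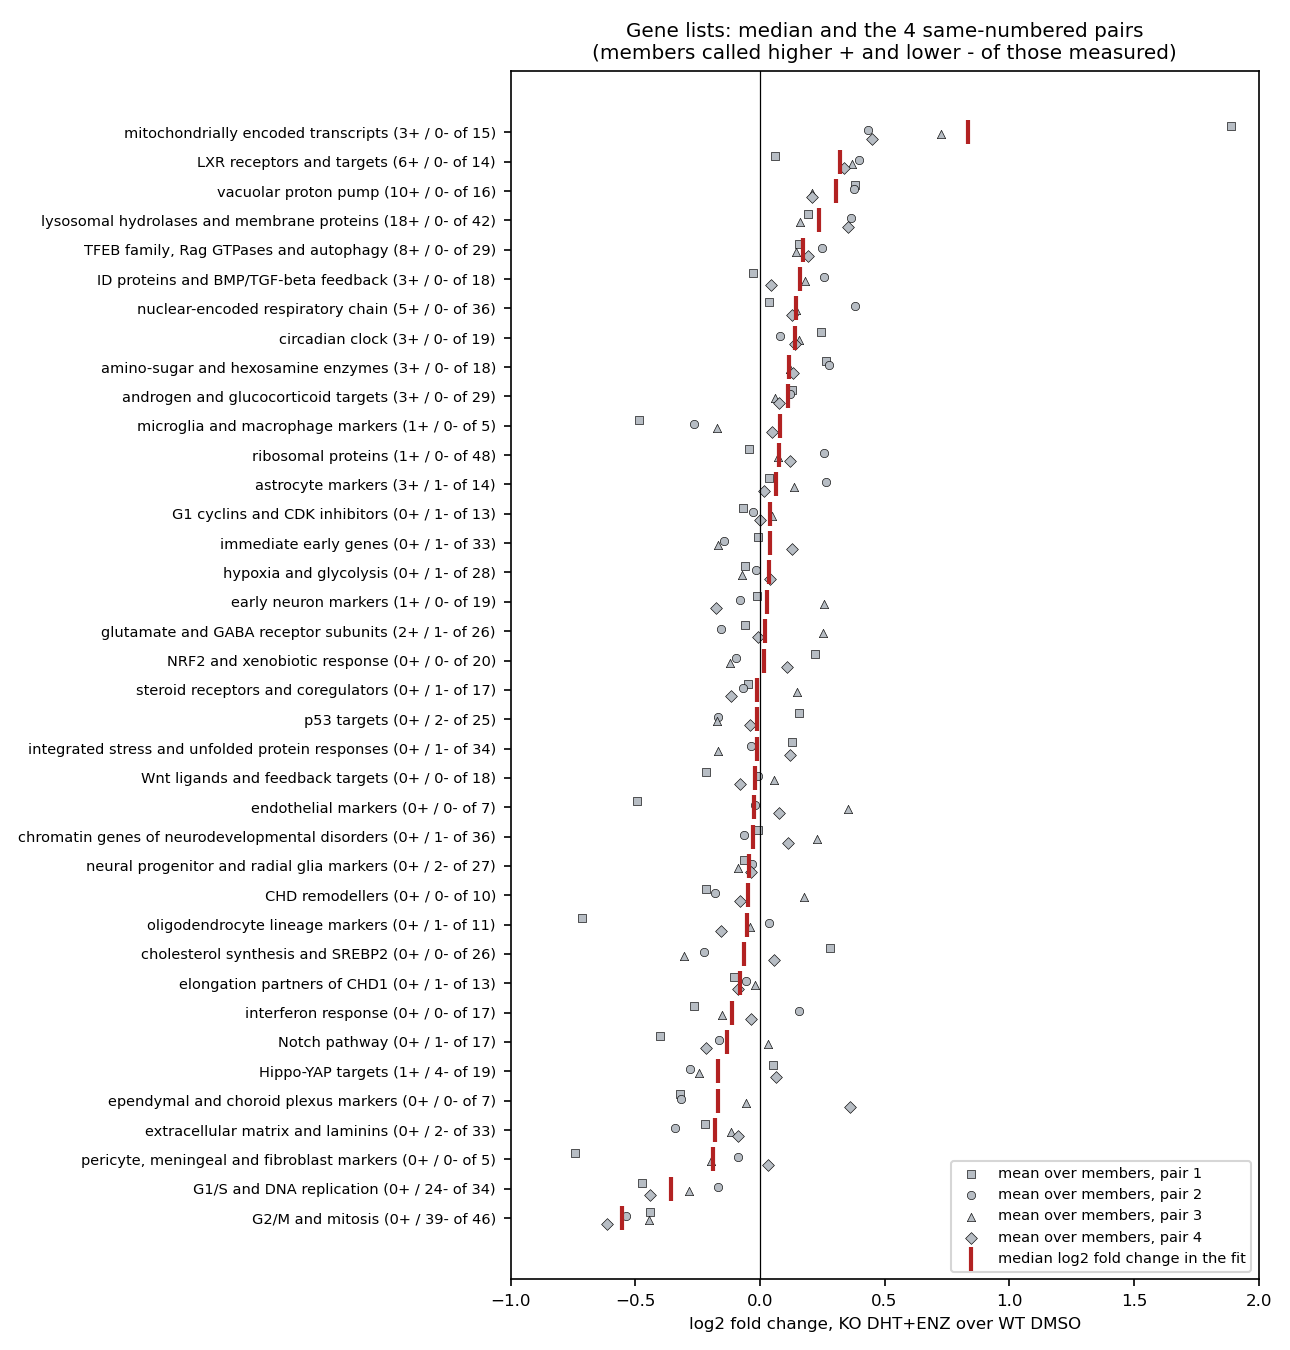
Median log2 fold change of KO DHT+ENZ over WT DMSO for each of 38 gene lists (red bars, horizontal axis) with the mean over the members in each of the 4 pairs (grey markers), and the members called higher (+) or lower (-) of those measured. The mitosis and replication lists lie below 0 in all 4 pairs, the proton pump and lysosomal lists above 0 in all 4, and the mitochondrial list is spread by pair 1.

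The groups between the 2 ends place each gene's difference along the series of added agents. KO DMSO against WT DMSO, the guide step, had 0 genes past the threshold in edgeR (0.0%), where 1282 had an unadjusted p below 0.05, with 14 in DESeq2 and 0 in limma-voom. KO DHT+ENZ against KO DHT, the antagonist step, had 588 (3.46%), 262 higher (1.54%) and 326 lower (1.92%), and 45 without the block. No count is given here for KO DHT against KO DMSO, the DHT step. At that step neither Abca1 (0.24, adjusted p = 0.623, edgeR) nor Mki67 (0.12, adjusted p = 0.73, edgeR) passed. Whether the antagonist step reversed a DHT effect was not tested. The guide and antagonist steps share libraries with the main comparison, so their values are set side by side and not as separate support. Among the 462 genes that fell, the median step was -0.05 for the guide, -0.06 for DHT and -0.35 for the antagonist, and 229 of them also fell against KO DHT. Among the 322 that rose, the median steps were 0.14, -0.01 and 0.24, and 109 also rose against KO DHT.

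By list, the mitosis genes had median steps of 0.04 for the guide, -0.04 for DHT and -0.53 for the antagonist, and 44 of 46 fell against KO DHT. The proton pump had 0.07, -0.05 and 0.30, with 8 of 16 higher against KO DHT, and the lysosomal list 0.10, -0.06 and 0.25, with 13 of 42. Uap1l1 was at 0.08, -0.09 and 0.98, and Renbp at 0.05, -0.07 and 0.84. Of the androgen and glucocorticoid targets that rose, Mt1 was at 0.09, -0.06 and 0.45 and Acsl3 at 0.11, -0.03 and 0.29. The third, Klf9, was at 0.29, 0.12 and -0.11, and none of these targets passed at the DHT step. Abca1 had all 3 steps above 0, at 0.34, 0.24 and 0.65 (adjusted p = 0.529, 0.623 and 0.00224, edgeR). Other genes had most of their difference at the guide step. St8sia5 was at 0.71, -0.09 and 0.23, Amotl2 at -0.65, -0.04 and 0.14, and Ajuba at -0.36, -0.09 and 0.02, none of which passed at any of these steps. In the integrated stress list the guide step had a median of -0.19 and the antagonist step 0.19, and the total was -0.01.

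**Figure D4:**
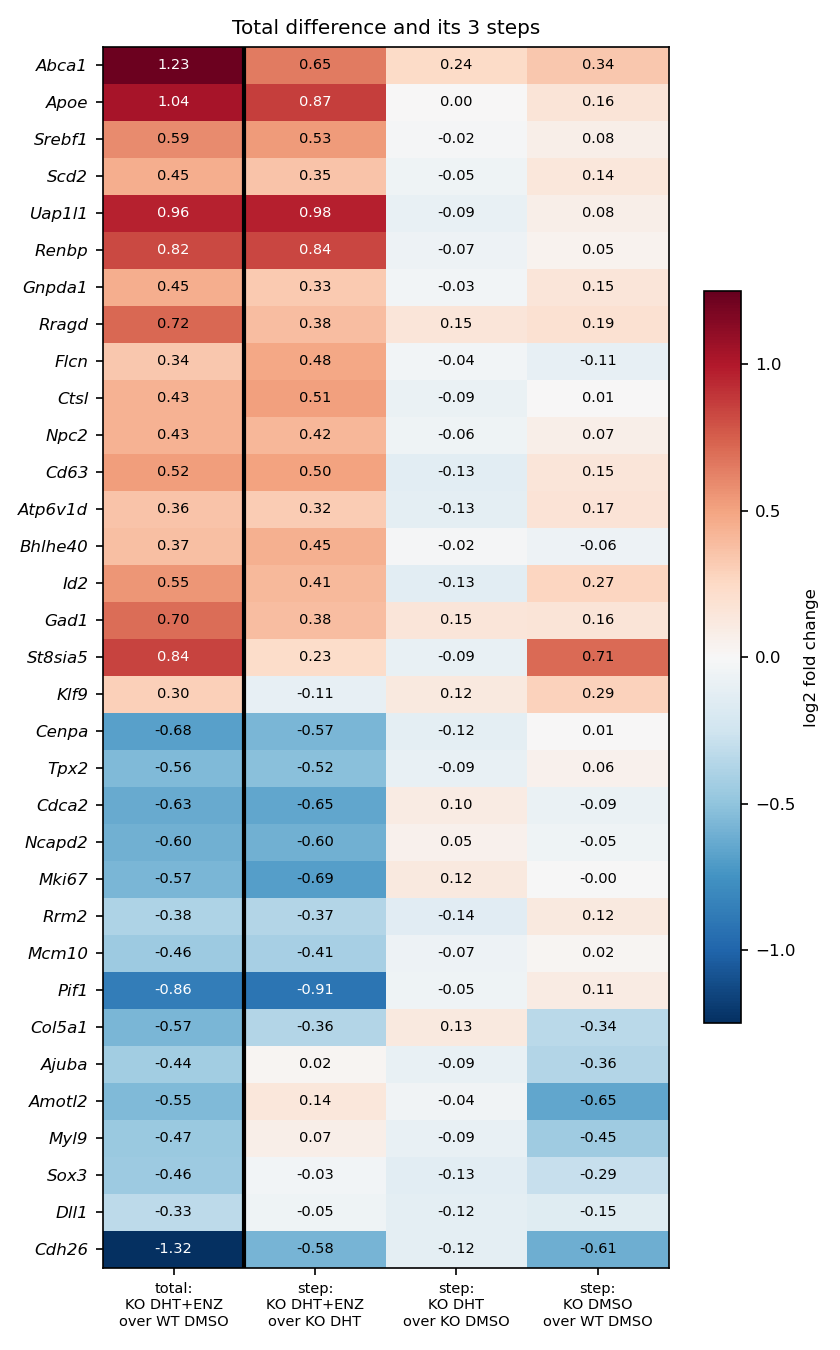
Log2 fold changes of 33 named genes (rows) for the total, KO DHT+ENZ over WT DMSO, and for its 3 steps (columns: KO DHT+ENZ over KO DHT, KO DHT over KO DMSO, KO DMSO over WT DMSO), coloured blue below 0 and red above 0, with each value printed. Mitosis and lysosomal genes carry most of their total in the antagonist step, and Ajuba, Amotl2, Myl9 and Sox3 carry most of theirs in the guide step.

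Leaving out pair 1 removed some calls and added others. Of the 784 genes, 146 did not pass without pair 1, and 406 genes of the same table passed only without it. Sums of the 4 Y-linked genes Ddx3y, Eif2s3y, Kdm5d and Uty were 4.79 to 6.12 CPM in the 4 libraries numbered 1 and 0.512 to 1.94 CPM in the other 12, so WT DMSO replicate 1 carried the same trace as the other libraries of its number. After group means were removed, KO DHT+ENZ and WT DMSO libraries of 1 number correlated across 9747 genes at r = 0.08, 0.24, 0.46 and 0.60 in pairs 1 to 4, a description across genes with no test. The lowest, in pair 1, was under the 0.1 that was set as a minimum in every pair, so the check on pairing was not met. The block was kept all the same, since the comparison was defined by the shared prefix. KO DHT+ENZ replicates 1 and 2 were closer to WT DMSO replicates 4 (r = 0.65) and 3 (r = 0.68) than to those of their own number. Fold changes also went with transcript length in opposite directions between pairs, with rank correlations across 9747 genes of 0.21, -0.46, 0.26 and -0.07 in pairs 1 to 4.

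**Figure D5:**
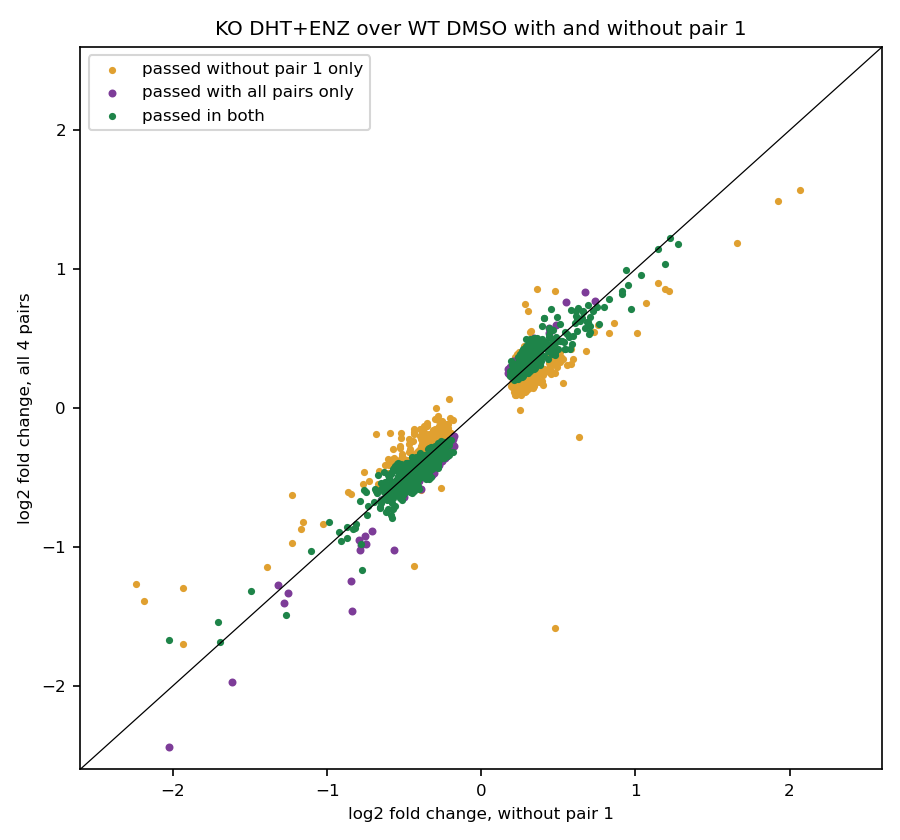
Log2 fold change of KO DHT+ENZ over WT DMSO with all 4 pairs (vertical axis) against that without pair 1 (horizontal axis) for genes that passed in both (green, 638), with all pairs only (purple, 146) or without pair 1 only (orange, 406). The line marks equal values, and 5 genes lie outside the axes.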

How the data were processed

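Transcripts were quantified with kallisto, and GRCm39 is the build named, both per the submitters' processing notes, which give no kallisto version. The authors deposited 1 table per library with an estimated count (not always whole) and a TPM, scaled to transcript length and library total, for each transcript. Filters and strand settings are not given in the sources used here. Estimated counts were summed per gene and rounded to whole numbers, and TPM served only for the level of Nr3c1 and for the length check. Gene names came from a GENCODE M21 table, which matched 135007 of 146190 transcripts, and no coordinates were taken from it.

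All 16 libraries entered 1 fit in edgeR 4.0.16 (R 4.3.3): edgeR's filter on low counts, TMM scaling, a robust quasi-likelihood test, terms for group and for replicate number as a block, and Benjamini-Hochberg adjustment over 16971 genes, with an adjusted p of 0.05 as the threshold. Each standard error was taken from the log2 fold change and the F of its test, and log2 CPM used a prior count of 2. The procedure was run on simulated counts that had the replicate number built in, so this run does not check the pairing. The block comes from the prefixes A2, A3, A4 and A7, which the libraries of all 4 groups share. The labels do not say whether a prefix marks an animal, a culture or a day, so p-values measure the spread between these libraries.

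Genes named were Chd1, the 12 largest rises and the 12 largest falls among genes that passed, with a mean of at least 2 CPM, 1 direction in 4 of 4 pairs and a settled symbol, and up to 4 members with the smallest p of each of 38 lists (2 where none passed); others are named to complete a list, and a few genes are not reported here. The comparison, the lists and the members were chosen with earlier results of these data known. Alternatives were the fit without the block, each pair or library left out, only the 8 or 6 libraries compared, RLE scaling, other filters on low counts, a transcript length offset, DESeq2 1.42.0 and limma-voom (limma 3.58.1). Tables were made with Python 3.11.15 and pandas 2.3.3.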

Additional observations from a re-analysis of the deposited data

Results flagged for a closer look

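Among the 104 named genes, each with its 4 KO DHT+ENZ and 4 WT DMSO libraries, 9 of 208 groups held 1 library that stood far from the other 3 by Dixon's test at 95%. Chance flags about 1 in 20 groups. In KO DHT+ENZ, Abca1 was at 137.7 CPM in replicate 1, below 181.8 to 188.3 CPM in the others, and Mki67 was at 218.7 CPM in replicate 2, below 246.9 to 248.1 CPM. Replicate 3 of KO DHT+ENZ was low for Atp6v1b2, at 204.4 CPM against 214.8 to 216.0 CPM, and for Otx2, a forebrain transcription factor gene, at 1.414 CPM against 6.274 to 7.001 CPM. Otx2 was also lowest in replicate 3 of the other groups, at 0.726 CPM in KO DHT, 0.949 CPM in KO DMSO and 0.397 CPM in WT DMSO. In WT DMSO, 3 of the 9 were in the shallow replicate 1: Dll1 was high at 48.55 CPM against 37.51 to 39.14 CPM, Lgr4, a receptor of Wnt signalling, was low at 17.7 CPM against 29.39 to 31.24 CPM, and Id2 was low at 16.73 CPM against 22.74 to 23.73 CPM. Trnp1 was at 1.497 CPM in WT DMSO replicate 2, against 2.688 to 2.834 CPM in the others. Gsta4, a glutathione transferase gene, was at 38.49 CPM in WT DMSO replicate 3, against 22.35 to 24.63 CPM. In the other groups too its replicate 3 was the highest, at 37.1 CPM in KO DHT+ENZ, 38.4 CPM in KO DHT and 43.4 CPM in KO DMSO.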

How the results depend on the processing

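The number of genes that changed depended on how replicates were modelled more than on scaling. For KO DHT+ENZ against WT DMSO, 784 genes passed in edgeR with the replicate block. Without the block 42 did (26 with pair 1 also left out), and 23.8% of the 42 were higher, against 41.1% of the 784. The common biological coefficient of variation was 0.122 with the block and 0.212 without it. With only the 8 libraries compared 1 gene passed and with 6 (pair 1 left out) 449, with an offset for transcript length 392 (361 of them among the 784, with 3 of the 784 turned in sign), and in DESeq2 1314. Leaving out 1 pair or 1 library gave between 334 (without pair 3) and 1246 (without WT DMSO replicate 1), with 425 without pair 2, 367 without KO DHT+ENZ replicate 1, 417 without KO DHT+ENZ replicate 3 and 482 without KO DHT+ENZ replicate 4. The count was 789 with RLE scaling, 767 with no filter, 855 with a mean of at least 10 CPM and 755 in limma-voom. For KO DHT+ENZ against KO DHT, 588 genes passed, with 45 without the block (48 with pair 1 also left out), 1041 in DESeq2, 270 with the length offset, and between 138 (without pair 4) and 1549 (without WT DMSO replicate 1) with 1 pair or library left out. A pair left out is always the KO DHT+ENZ and WT DMSO libraries of 1 number, so all KO DHT and KO DMSO libraries stayed in. Of the 588, 44.6% were higher, against 57.1% of those called without pair 1 and 28.9% of those called without the block. For KO DMSO against WT DMSO, 0 genes passed in edgeR, with 10 with no filter, 14 in DESeq2, 1 with the length offset, and between 0 and 26 (without WT DMSO replicate 1) with 1 pair or library left out. The cause of these moves was not tested. No median over all genes moved by 0.1 on the log2 scale.

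Of 87 named genes that passed, 13 passed without the block, 81 without pair 1, 59 with the length offset, 1 with 8 libraries, 83 in limma-voom and 87 in DESeq2. The direction of each named gene that passed was the same under each alternative that tested it (only 68 of the 87 were above the filter at 10 CPM). The pairing of replicate numbers was borne out least in pair 1. With 4 libraries a group, and 20.2 M estimated counts in WT DMSO replicate 1, low genes are the least certain.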
